A study of Mus musculus with 3 samples.

Results

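A small group of dermal fibroblasts that carried genes of the contractile apparatus was examined in dorsal skin of C57BL/6J mice. Its members were selected on measured values. A cell was kept when 500 or more genes were detected and no more than 10% of its UMIs were mitochondrial, a UMI being a molecular tag that marks 1 captured transcript. A kept cell counted as a fibroblast when Dcn, Lum, Col1a1, Col1a2 and Col3a1 together held at least 1% of its UMIs and it had no UMI of Ptprc, Epcam or Cdh5, which mark leukocytes, epithelium and endothelium. A fibroblast was a member when at least 3 of 5 genes (Ednrb, Adamts18, Lrrc15, Col11a1 and Stmn2) had a UMI and Rgs5, a pericyte gene, had none. The rule found 359 members among 13214 fibroblasts, 32377 kept cells and 36868 deposited cells. There were 75 in CON, 106 in UV and 178 in Rux.

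Contractile fibroblasts of skin line the hair follicle in a layer called the dermal sheath, which wraps the follicle outside its basement membrane and is known for its smooth muscle actin. That layer can contract through actin and myosin, and it exchanges cells with the dermal papilla, the signalling centre at the follicle base. Endothelins are small peptides that drive contraction and act through the receptors encoded by Ednra and Ednrb. Of the marker genes, Acta2 encodes smooth muscle actin and Tagln an actin-binding protein of contractile cells. Lrrc15 encodes a membrane protein found on activated stromal cells, Adamts18 a secreted protease, Col11a1 a chain of fibrillar collagen XI and Stmn2 a regulator of microtubules.

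The 3 libraries, 1 per condition, came from full-thickness dorsal skin of wild type mice that entered the study at 8 weeks. CON mice were not irradiated, UV mice received UVA (0.60 mW/cm2) and UVB (3.5 mW/cm2) on alternate days for 12 weeks, and Rux mice received the same irradiation with ointment of 1.5% ruxolitinib, an inhibitor of JAK1 and JAK2, after each exposure. A figure legend of the study gives vehicle for CON and UV skin, and its methods place tissue collection 24 h after the last exposure. How many mice each library holds is not given in the sources used here, so a value for a condition has no replicate and differences between conditions were not tested. The intervals shown are exact at 95% and cover counting error only. The labels give female mice, but over all kept cells the Y-linked gene Ddx3y stood at 110 CPM in CON, 116 CPM in UV and 122 CPM in Rux, and Xist at 0.117, 0.107 and 0.101 CPM. CPM are UMIs per 1000000 UMIs, summed over a group of cells. Members held 0 Xist UMIs in all 3 libraries, which allows up to 2.33, 1.98 and 1.05 CPM. The libraries shared 50 (CON and UV), 28 (CON and Rux) and 40 (UV and Rux) cell barcodes, and no barcode was a member in more than 1 library.

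Members were deeper than the remaining fibroblasts. The median member had 16812 UMIs and 4504 genes in CON, 12721.5 UMIs and 3999.5 genes in UV, and 13982 UMIs and 4001 genes in Rux. The 3208, 5054 and 4593 other fibroblasts had medians of 5732, 6953 and 9572 UMIs. Together the members gave 1289402 UMIs in CON, 1515384 in UV and 2846795 in Rux. A rule that asks for detected genes finds more cells where cells are deep, so shares are given below at a fixed depth as well. Scores of the doublet caller Scrublet were among the highest of the library in 5, 4 and 9 members.

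The label was checked against Acta2 and Tagln, which the rule did not use. Acta2 (chr19:34241090-34255590, minus strand, coordinates of GRCm38) stood at 1745 CPM in CON members, 1030 CPM in UV members and 1066 CPM in Rux members. In other fibroblasts it stood at 35.2, 33.7 and 16.3 CPM. Tagln (chr9:45929619-45936058, minus strand) had 736, 569 and 522 CPM in members against 31.9, 26.4 and 11.4 CPM in other fibroblasts. The contractile name thus held for the summed UMIs of every library, and for fewer of the single cells in the irradiated libraries. An Acta2 UMI was found in 90.7% of CON, 74.5% of UV and 65.7% of Rux members, so that 7, 27 and 61 members had none. Immune cells (at least 2 UMIs of Ptprc), which should lack the gene, had an Acta2 UMI in 4.48% of CON, 5.38% of UV and 7.01% of Rux cells, at median depths of 5817, 6467 and 6559.5 UMIs. With every cell thinned to 3000 UMIs, Acta2 was found in 80.0% of CON, 55.2% of UV and 48.3% of Rux members and in 2.97%, 2.27% and 2.28% of other fibroblasts. The order of the libraries among members was the same at this depth.

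**Figure D1:**
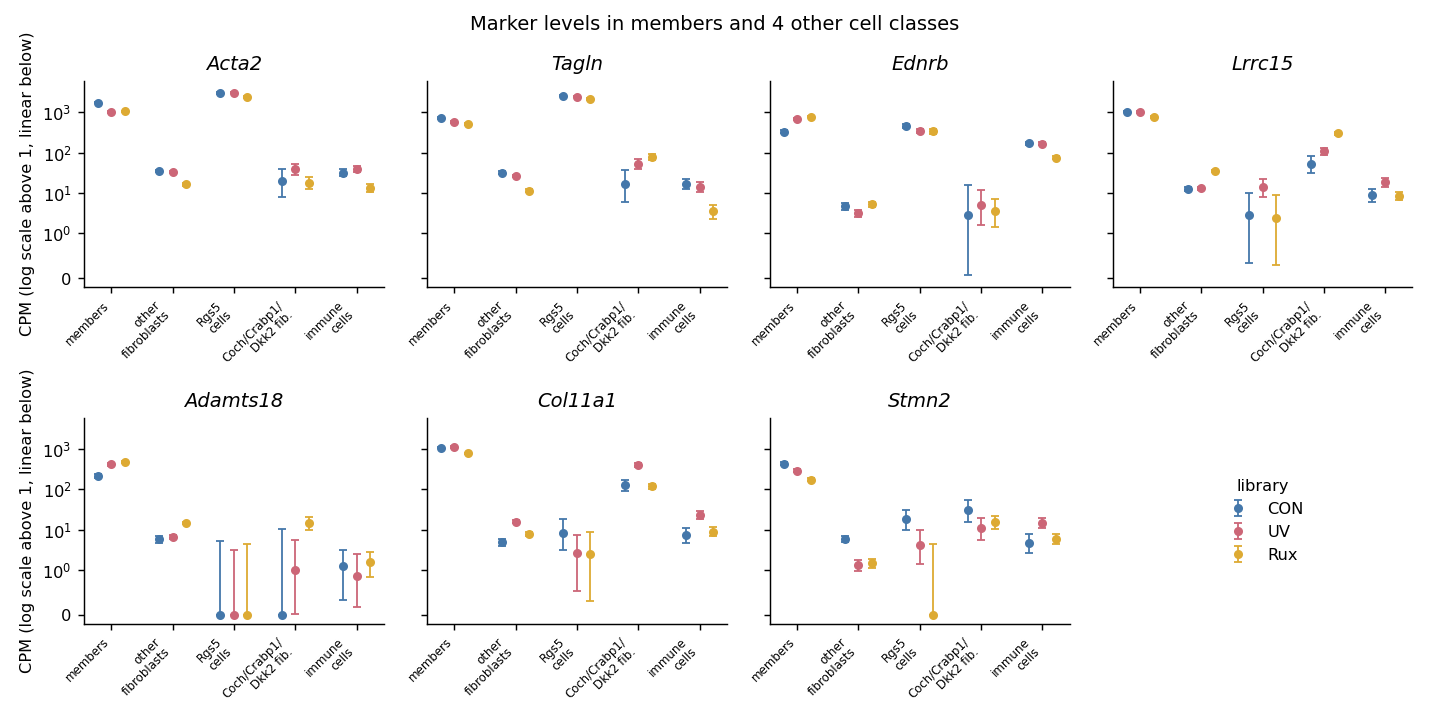
CPM of the 7 markers (vertical axis, log scale above 1 and linear below) in members, other fibroblasts, Rgs5 cells, Coch/Crabp1/Dkk2 fibroblasts and immune cells of each library, with exact 95% counting intervals. Acta2 in members (1030 to 1745 CPM) lies between other fibroblasts (16.3 to 35.2 CPM) and Rgs5 cells (2440 to 3064 CPM).

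The 5 genes that chose the members are given as a description. Ednrb (chr14:103814625-103844402, minus strand) stood at 331 CPM in CON, 673 CPM in UV and 782 CPM in Rux members. Adamts18 (chr8:113697126-113848738, minus strand) had 212, 422 and 467 CPM in that order. Both were lowest in CON. Lrrc15 (chr16:30269302-30283256, minus strand) had 1052, 1008 and 762 CPM, Col11a1 (chr3:114030540-114220718, plus strand) had 1094, 1111 and 789 CPM, and Stmn2 (chr3:8509360-8561606, plus strand) had 435, 291 and 175 CPM. These 3 were lowest in Rux. Lrrc15 was found in nearly every member (100%, 99.1% and 98.9%) and Ednrb in fewer (73.3%, 55.7% and 56.2%). All 5 genes were found in 31 CON, 29 UV and 41 Rux members, and Adamts18, Lrrc15 and Col11a1 without the other two in 2, 23 and 40. Just inside the threshold, cells with 3 of the genes had 1109 CPM of Acta2 in CON (15 cells), 319 CPM in UV (41 cells) and 209 CPM in Rux (81 cells). With 4 genes the levels were 1624, 1314 and 1280 CPM, and with all 5 they were 2013, 1478 and 2218 CPM, the highest in Rux. Just outside it, cells with 2 of them had 92.2 CPM (36 cells), 53.8 CPM (90 cells) and 50.4 CPM (156 cells). Members with 3 genes thus made up the larger share in Rux, and their Acta2 level there was the closest to that of the cells left out.

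Other cells of skin also carried the markers. Outside the fibroblasts, 111 CON, 112 UV and 179 Rux kept cells had at least 3 of the 5 genes, and in 92, 93 and 163 of them the fibroblast genes held under 1% of the UMIs. Rgs5 cells, those with at least 3 UMIs of Rgs5, carry a marker of pericytes and vascular muscle (103 in CON, 183 in UV and 86 in Rux). They held more Acta2 than members, with 3064, 3063 and 2440 CPM, and Ednrb at 462, 347 and 337 CPM. They had 0 UMIs of Adamts18 in all 3 libraries and 2.79, 13.7 and 2.44 CPM of Lrrc15, both genes of the rule, so that their difference from members is a description only. Myh11, the smooth muscle myosin heavy chain, stood at 1251, 1553 and 1556 CPM in Rgs5 cells and at 0.776, 3.30 and 2.46 CPM in members. Des, the muscle intermediate filament gene, had 1.55, 1.98 and 0.351 CPM in members. Over the 15 pericyte genes listed, the members summed to 545, 418 and 427 CPM against 4850, 7651 and 7882 CPM in Rgs5 cells. Rgs5 itself, which the rule sets to 0 in members and which defines the Rgs5 cells, gave 2392, 4254 and 4472 CPM of the latter sums. The most abundant pericyte gene of members was Cspg4 in CON (127 CPM) and Pdgfrb in UV and Rux (141 and 174 CPM), and 4, 4 and 2 of the 15, Rgs5 included, had no UMI in members. Of 6 measured pericyte genes, 3 (Cspg4, Mcam and Heyl) stood above other fibroblasts by a log2 ratio of at least 1 in every library. Steap4 stood below them by as much. The median log2 ratio of the 6 was 2.07, beside 0.28 over all genes. Fibroblasts with Coch, Crabp1 or Dkk2 (at least 2 of the 3 genes, 39, 119 and 145 cells) shared Col11a1 at 125, 403 and 119 CPM but had 19.4, 38.5 and 17.9 CPM of Acta2.

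Sums over markers of other lineages were mostly low in members, in part by the rule, since the immune list holds Ptprc and the keratinocyte list Epcam, both set to 0 in all fibroblasts. The 13 immune genes summed to 25.6, 23.1 and 34.8 CPM in members and to 48.2, 27.8 and 56.6 CPM in other fibroblasts, and their most abundant gene in members was Cd74 (10.9 CPM) in CON, H2-Aa (6.60 CPM) in UV and S100a9 (7.38 CPM) in Rux. The 12 keratinocyte genes summed to 399, 228 and 239 CPM in members against 592, 267 and 275 CPM. Of the 10 skeletal muscle genes, 5, 6 and 4 had no UMI in members of the 3 libraries. Ncam1, a neural adhesion gene placed among the Schwann cell genes, was an exception with 322, 288 and 234 CPM in members against 12.2, 12.2 and 18.3 CPM. It made up most of the Schwann list's sum of 406, 308 and 256 CPM. The tendon and cartilage genes also summed higher in members, to 841, 610 and 401 CPM against 156, 197 and 112 CPM, but stood at 1355, 2621 and 862 CPM in the fibroblasts with Coch, Crabp1 or Dkk2, mostly from Fmod. The arrector pili and smooth muscle genes summed to 685, 554 and 481 CPM in members against 159, 148 and 125 CPM in other fibroblasts.

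To see where members fall without the genes that chose them, the fibroblasts of all libraries were clustered after those genes were removed. Of the 18 clusters, 1 held 304 of the 359 members (84.7%). Members were 76.4% of its 398 cells, and Acan, Kcnn2, Actg2, Kank4, Tnnt1, Casq2, Corin, Alx4, Sbspon and Tnn led it. It held 71 of the 75 CON members, 98 of 106 in UV and 135 of 178 in Rux, which is 94.7% (86.9% to 98.5%), 92.5% (85.7% to 96.7%) and 75.8% (68.9% to 81.9%). This order depended on the clustering. At resolution 2 the shares were 82.7% (72.2% to 90.4%), 91.5% and 87.6% (81.9% to 92.1%), with CON the lowest. With 15 components they were 96.0% (88.8% to 99.2%), 94.3% and 87.6% (81.9% to 92.1%), and the CON and Rux intervals overlapped. Members outside the cluster of 398 cells had 0 CPM of Acta2 in CON (4 cells), 7.82 CPM in UV (8 cells) and 52.1 CPM in Rux (43 cells), against 1801, 1124 and 1415 CPM inside it. Of the 43 Rux cells, 28 lay in a cluster of 806 fibroblasts led by Lce1 genes of the cornified envelope, where Acta2 stood at 16.2 CPM. For some values between libraries, the value inside the main cluster, the one that held the 304 members, is therefore given too. A cluster of 48 fibroblasts led by Cnn1, Myh11 and other smooth muscle genes held no member.

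**Figure D2:**
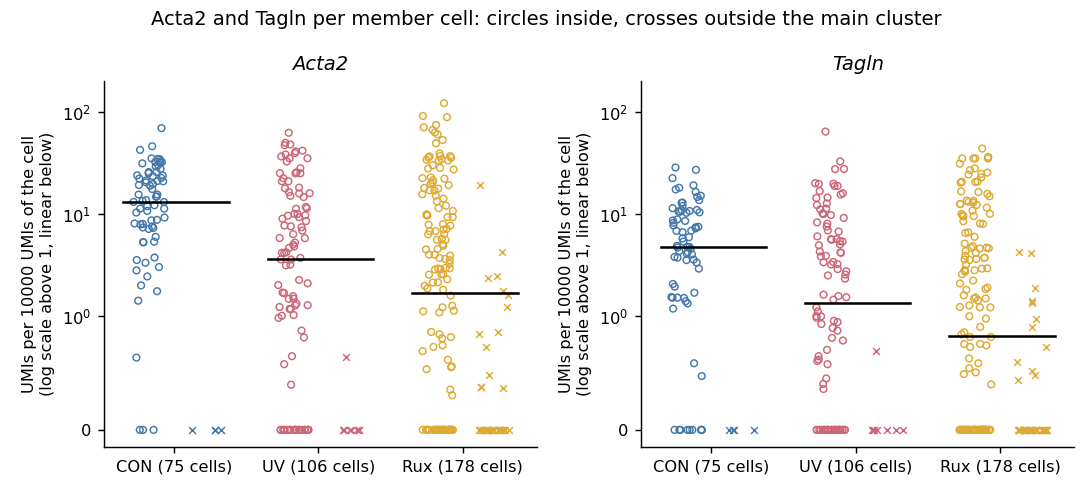
Acta2 and Tagln UMIs per 10000 UMIs of the cell (vertical axis, log scale above 1 and linear below) for each of the 359 members by library. Circles are members inside the cluster that held most of them, crosses those outside it, and lines the median over all members of a library; for Acta2 the medians are 13.1 in CON, 3.59 in UV and 1.69 in Rux.

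Single members varied widely. Acta2 ran from 0 to 69.3 UMIs per 10000 in CON, with a median of 13.1. In UV it ran from 0 to 62.4 with a median of 3.59, and in Rux from 0 to 122 with a median of 1.69. The ranges overlapped, and the highest single cells were in Rux while its median was the lowest. Ednrb is a gene of the rule, so members without it had to pass on 3 of the other 4 genes, and the split is a description. With an Ednrb UMI, Acta2 stood at 2022 CPM in CON (55 cells), 1517 CPM in UV (59 cells) and 1622 CPM in Rux (100 cells). Without Ednrb it had 558 CPM (20 cells), 284 CPM (47 cells) and 279 CPM (78 cells). Median depth differed between these sides in CON (18254 against 11440.5 UMIs) and UV (15303 against 11153 UMIs) and little in Rux (14089.5 against 13937 UMIs). Actg2, smooth muscle gamma actin, was split in the same way, with 293, 255 and 227 CPM beside Ednrb and 32.8, 43.4 and 42.4 CPM without it. Acan, the cartilage proteoglycan aggrecan, had 427, 248 and 128 CPM beside Ednrb and 115, 41.8 and 2.55 CPM without it. Mylk, the kinase of myosin light chain, had 136, 278 and 328 CPM beside Ednrb and 131, 199 and 179 CPM without it. Myocd, the cofactor that drives smooth muscle genes, had 36.3, 31.6 and 13.2 CPM against 8.20, 10.0 and 13.6 CPM. The difference was small for Mylk in CON and for Myocd in Rux. Without Ednrb, the Myocd values rest on only 2, 6 and 16 UMIs, and the Rux value of Acan on 3. Of the 43 Rux members outside the main cluster, 12 had an Ednrb UMI. The type III collagen gene Col3a1 was split the other way in all 3 libraries, with 3882, 4126 and 4443 CPM beside Ednrb and 4744, 6891 and 6251 CPM without it. The type I collagen gene Col1a1 stood higher beside Ednrb, with 10910, 11988 and 7819 CPM against 10419, 8030 and 5036 CPM. Splits by other genes of the rule differed. Members with an Adamts18 UMI had 1708, 830 and 1149 CPM of Acta2 in CON, UV and Rux, and those without it 1825, 1998 and 695 CPM. Members with a Stmn2 UMI had 1739, 1391 and 1448 CPM of Acta2, and those without it 1788, 492 and 635 CPM.

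The share of fibroblasts that were members was 2.28% (1.80% to 2.86%) in CON, 2.05% (1.68% to 2.48%) in UV and 3.73% (3.21% to 4.31%) in Rux. Under this rule the Rux interval lay above the other two. It overlapped both when collagen, Dcn and Lum had to hold at least 2% of a fibroblast's UMIs, with 2.84% (2.08% to 3.78%), 2.44% (1.89% to 3.09%) and 3.32% (2.63% to 4.12%). Depth moved with it, since the median Rux fibroblast was the deepest. With each fibroblast thinned to 3000 UMIs, which left out 619, 826 and 464 shallower fibroblasts, the shares were 2.10% (1.59% to 2.72%), 1.64% (1.28% to 2.06%) and 2.28% (1.85% to 2.77%). At this depth the Rux interval overlapped that of CON widely and that of UV in part. With 4 of the 5 genes asked for, the shares were 1.83% (1.4% to 2.35%), 1.26% (0.974% to 1.60%) and 2.03% (1.65% to 2.47%), so that Rux lay above UV but not above CON. The cluster that held most members took 2.41% (1.91% to 2.99%), 2.60% (2.18% to 3.07%) and 3.88% (3.35% to 4.46%) of fibroblasts, with the Rux interval above both others. That interval also lay above both with 2 of the 5 genes asked for and with Ednrb or Stmn2 dropped from the rule. The same held with at most 5% mitochondrial UMIs and with the highest doublet scores left out. Of all kept cells members were 0.655%, 0.961% and 1.80%, a share that also moves with how many cells of other types each suspension gave.

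**Figure D3:**
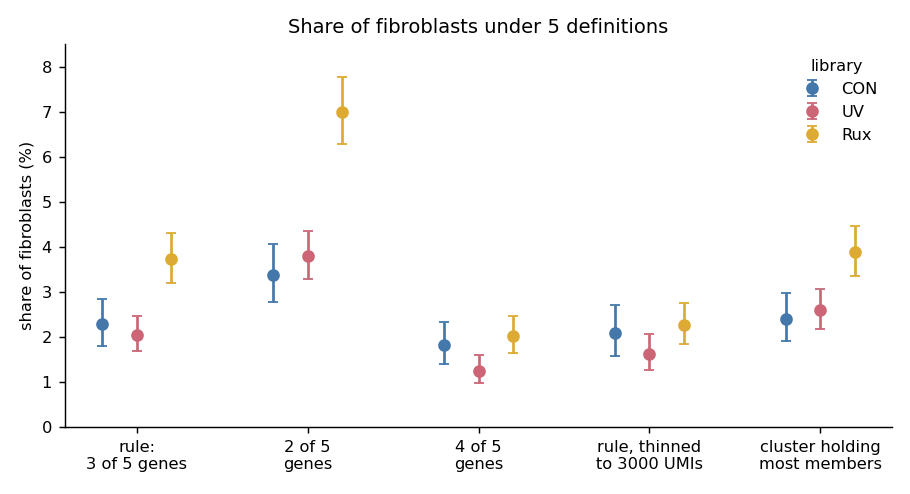
Share of fibroblasts (vertical axis, %) in CON, UV and Rux under the rule, with 2 or 4 of the 5 genes asked for, with every fibroblast thinned to 3000 UMIs, and for all cells of the cluster that held most members, with exact 95% intervals. Rux lies above CON and UV under the rule (3.73% against 2.28% and 2.05%) and overlaps both after thinning (2.28% against 2.10% and 1.64%).

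The expression of members was then set against the other fibroblasts of the same library. The rule chose the cells within this contrast, so it is a description with no test. A gene is counted as higher or lower when the log2 ratio of CPM reached 1 in that direction in each of the 3 libraries. Genes averaging 10 CPM or more entered, 8665 in all. Of these, 550 (6.35%) were higher and 491 (5.67%) lower. The median ratio over all genes was 0.31, 0.28 and 0.24 on the log2 scale, beside which single values stand. With the libraries scaled by the median of ratios in place of their totals, 353 genes were higher and 686 lower.

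Of the contractile apparatus list, 16 of 25 measured genes were higher in members and 0 lower, with a median log2 ratio of 1.91 beside 0.28 over all genes. Actg2 had 244, 172 and 150 CPM in CON, UV and Rux members and 2.57, 1.39 and 0.951 CPM in other fibroblasts. Tpm1 and Tpm2, tropomyosins that lie along actin filaments, had 1080, 912 and 864 CPM and 535, 378 and 400 CPM. Myl9, the regulatory myosin light chain, had 368, 224 and 207 CPM against 17.3, 29.6 and 18.5 CPM, and Mylk, the kinase that switches it on, 135, 247 and 266 CPM against 22.8, 28.2 and 21.9 CPM. The non-muscle myosin heavy chain gene Myh10 was also among the higher, with 151, 95 and 98.4 CPM against 20.1, 27.5 and 28.7 CPM, while the smooth muscle heavy chain Myh11 was near 0. The light chain gene Myl6 did not pass in all 3 libraries, with 1570, 1311 and 1112 CPM against 684, 612 and 563 CPM. Of 21 measured regulators of contraction, 2 were higher and 1 (Camk2d) lower. The higher ones were Pde5a, a phosphodiesterase of cyclic GMP, and Myocd, the cofactor of serum response factor that drives smooth muscle genes, which had 31.0, 23.1 and 13.3 CPM in members against 0.840, 0.898 and 0.414 CPM.

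Among ligands and receptors of the endothelin axis, the second receptor gene Ednra was also higher. It had 83.8 CPM in CON, 137 CPM in UV and 123 CPM in Rux members, against 9.83, 10.2 and 13.9 CPM in other fibroblasts. Edn1, the ligand, had 3.1, 5.94 and 6.32 CPM in members and 31.9, 40.6 and 30.1 CPM in other fibroblasts. Ece1, which cuts the precursor of the ligand, had 153, 205 and 319 CPM against 146, 109 and 188 CPM.

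Of the dermal sheath list, 10 of 11 measured genes outside the rule were higher (median log2 3.1), and Abi3bp was lower. The list holds Acta2, Tagln and other contractile genes and was chosen with the pattern of these cells known, so its count is no independent evidence. Itga8, the integrin alpha 8 chain, had 60.5, 40.3 and 62.5 CPM in members against 2.47, 3.18 and 1.68 CPM. Tnmd, which encodes tenomodulin of tendon and ligament, had 371, 317 and 214 CPM against 85.0, 76.3 and 44.4 CPM. Of the dermal papilla list, 7 of 13 genes were higher and 3 lower. Among the higher were Corin (30.2, 55.4 and 93.8 CPM against 1.33, 3.18 and 1.26 CPM), a serine protease, and the homeobox gene Alx4 (40.3, 38.3 and 23.9 CPM against 0.395, 0.925 and 0.600 CPM). Lower were Bmp4, Fgf7 and Pappa2. The whole papilla list summed to 1455, 1646 and 1407 CPM in members and to 656, 846 and 899 CPM in other fibroblasts. It summed higher still, to 2583, 4139 and 2048 CPM, in the fibroblasts with Coch, Crabp1 or Dkk2, whose own choice used Crabp1, a gene of this list (978, 1676 and 560 CPM there). Corin (0, 3.04 and 0.497 CPM) and Alx4 (0, 12.2 and 3.98 CPM) were low in those cells.

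Matrix genes set members apart in part. Of the collagen list, 7 of 14 were higher and 1 lower. Col12a1, a collagen that decorates fibrils, had 697, 913 and 836 CPM in members against 178, 148 and 173 CPM, and Col6a3 of the pericellular network 1805, 1512 and 1023 CPM against 382, 324 and 367 CPM. Col14a1 was the lower one. Of 29 matrix glycoproteins and proteoglycans, 4 were higher and 2 lower, with a median log2 ratio of 0.25 beside 0.28 over all genes. Fbn2, one of the higher and the fibrillin of developing microfibrils, had 444, 216 and 111 CPM against 6.82, 9.61 and 8.81 CPM. Acan had 368, 166 and 76.2 CPM against 0.543, 0.735 and 0.455 CPM, the furthest apart of the named genes. Of the basement membrane list, 5 of 18 genes were higher, among them Col4a2, Nid2 and Col15a1, and 3 were lower, among them Col4a3 and Col4a4.

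Most cytokine and secretory genes stood lower in members. Of 27 measured cytokine and secretory genes, 17 were lower and 2 higher (median log2 −2.74). Il6, among the 17, had 31.8, 99.6 and 69.2 CPM in members and 1198, 1161 and 501 CPM in other fibroblasts. Its values in members are not read as expression, for the reason given with the libraries below. Ccl11, an eosinophil chemokine, had 6.98, 27.1 and 34.8 CPM against 442, 309 and 263 CPM. The 2 higher ones, Igfbp2 and Igfbp4, bind insulin-like growth factors. Igfbp4 had 1417, 3146 and 2451 CPM in members against 277, 599 and 399 CPM. Of 21 oxidative stress genes 8 were lower and 0 higher, with the metallothionein Mt1 at 517, 659 and 508 CPM against 9488, 5102 and 3251 CPM. Of 28 JAK-STAT genes, 5 were lower (Cish, Il6ra, Osmr, Il4ra and Il13ra1) and 0 higher. None of the 12 heat shock genes passed in either direction. The 22 immediate-early genes, which are known to respond to tissue dissociation, summed to 12518, 12425 and 13030 CPM in members against 27316, 15049 and 16629 CPM in other fibroblasts.

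The genes furthest above other fibroblasts in every library were named by their lowest ratio. Acan, Actg2, Kcnn2, Tnnt1, Tnn and Acta2 led. Kcnn2 encodes a calcium-activated potassium channel and had 83.8, 50.2 and 40.4 CPM in members against 0.247, 0.272 and 0.434 CPM. Tnnt1, the slow skeletal troponin T, had 109, 78.5 and 36.2 CPM against 0.445, 0.463 and 0.703 CPM. Wif1, a secreted inhibitor of Wnt ligands, had 178, 233 and 186 CPM against 4.54, 11.2 and 10.2 CPM, and Aqp1, a water channel, 202, 228 and 254 CPM against 6.37, 8.55 and 11.3 CPM. Of the 20 genes named as higher, Acta2, Tagln and Mcam stood higher still in Rgs5 cells of all 3 libraries. Furthest below were Plcxd3, Sult1e1, Cxcl13, Inmt, Tmeff2, Gabra3, Csmd1, Col4a4, Myoc and Zfp385b. Myoc, the secreted protein myocilin, had 3.1, 10.6 and 20.7 CPM in members against 653, 502 and 352 CPM, and Inmt, a methyltransferase, 3.88, 34.3 and 34.1 CPM against 415, 657 and 675 CPM.

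**Figure D4:**
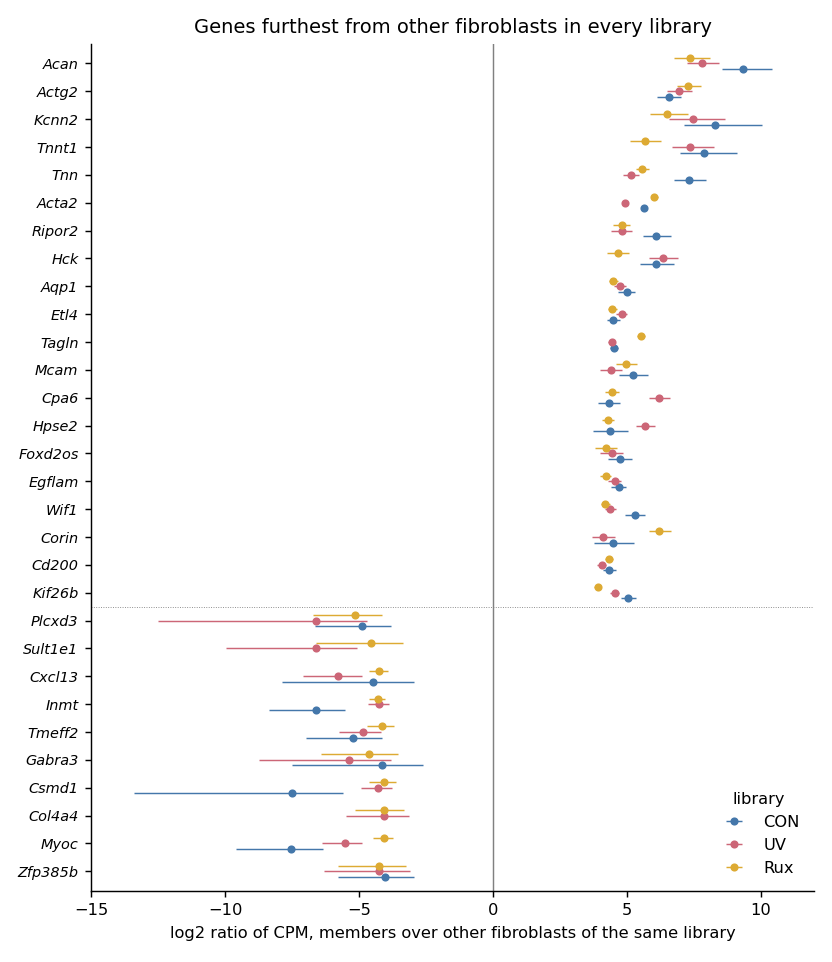
Log2 ratio of CPM (horizontal axis) of members over other fibroblasts of the same library, with counting intervals. The genes are the 20 furthest above and the 10 furthest below in every library, among those with a mean of at least 50 CPM. Sult1e1 and Col4a4 have no CON point because members there held 0 UMIs. The ratios of Acan run from 7.36 in Rux to 9.34 in CON, and those of Zfp385b from −4.27 to −4.03.

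Differences between the libraries were then taken within members. UV against CON asks how these cells differ after chronic irradiation, and Rux against UV how they differ when JAK1 and JAK2 were inhibited during it. A gene is counted when the log2 ratio passed 1. For UV over CON, 528 of 8797 genes (6.00%) were higher and 593 (6.74%) lower. For Rux over UV, 107 of 8602 (1.24%) were higher and 159 (1.85%) lower. For Rux over CON, 675 (7.67%) were higher and 866 (9.84%) lower, or 849 and 591 with median-of-ratios scaling. The contrasts share libraries and are therefore given side by side without a comparison of their gene lists.

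The contractile apparatus differed little between libraries in its median. For UV over CON, its 25 measured genes had a median log2 ratio of −0.21 in members and −0.07 in other fibroblasts beside −0.08 over all genes. Acta2 was lower in UV by a log2 ratio of −0.76 (−0.85 to −0.67), and −0.68 inside the main cluster. For Rux over UV, 0 of 25 passed in either direction, and Acta2 had 0.05 (−0.04 to 0.14), or 0.33 inside the main cluster. Tagln had −0.37 (−0.51 to −0.24) for UV over CON and −0.12 (−0.25 to −0.00) for Rux over UV. Inside the main cluster the second value turned to 0.15, with 621 CPM in UV and 688 CPM in Rux. Mylk stood the other way, with 0.87 (0.61 to 1.14) for UV over CON. Ednrb, a gene of the rule, had 1.02 and 0.22 in that order, and Ednra 0.71 (0.37 to 1.06) and −0.16 (−0.41 to 0.10).

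Of the lists, the cell cycle genes had the median furthest from 0 in UV over CON. For UV over CON, 9 of 11 were lower and 0 higher (median log2 −2.45, against −0.99 in other fibroblasts). For Rux over UV, 2 of 5 were lower. The 12 genes summed to 895 CPM in CON members, 212 CPM in UV and 176 CPM in Rux, and to 195, 116 and 96.4 CPM in other fibroblasts. Mki67, a marker of cycling cells, had 167 CPM in CON (145 to 191), 27.1 in UV (19.4 to 36.7) and 13.3 in Rux (9.45 to 18.3). It was found in 31 of 75 CON members, 6 of 106 in UV and 13 of 178 in Rux, or 41.3% (30.1% to 53.3%), 5.66% (2.11% to 11.9%) and 7.30% (3.95% to 12.2%). In other fibroblasts the shares were 6.36%, 3.30% and 3.00%. Top2a, a DNA topoisomerase of dividing cells, had 204, 33.7 and 31.6 CPM. Stmn1, another microtubule regulator of dividing cells, had 301, 71.9 and 40.0 CPM. Some markers of another lineage were also lower in UV than in CON members, with 3 of 11 keratinocyte genes lower (Krt15, Krt17 and Krt1) and 0 higher. The median log2 ratio of these 11 genes was −0.66 in members and −1.22, further below 0, in other fibroblasts. Their part in the cell cycle values was not tested. CON members were the deepest, which can raise the share with a UMI. The part of depth in the cell cycle values was not tested.

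Dcn ran the other way, and Col1a1 did not. Dcn, the decorin gene used to define fibroblasts, stood at 731 CPM in CON members, 2578 CPM in UV and 4575 CPM in Rux, against 12279, 11023 and 10635 CPM in other fibroblasts. Immune cells, which should lack the gene, had 649, 996 and 1007 CPM, so that the CON level of members lay near that background. Inside the main cluster Dcn had 512, 2260 and 3341 CPM. Col1a1, another gene of the fibroblast rule, had 10817, 10424 and 6667 CPM in members and 7299, 4032 and 4077 CPM in other fibroblasts. Among the genes furthest above in UV over CON, 9 of the 10 named stood higher in other fibroblasts than in members in both libraries. They were Medag, Ifi205, Gpx3, Ogn, Clec3b, Tnxb, Pi16, Igf1 and Cdkn1c. Gpx3, a secreted glutathione peroxidase, stood at 28.7 CPM in CON and at 317 CPM in UV members, a log2 ratio of 3.45 (2.98 to 3.99), and 2744 and 3316 CPM in other fibroblasts. Ogn, the small proteoglycan osteoglycin, had 35.7 and 379 CPM, or 3.40 (2.98 to 3.88), and 982 and 1596 CPM in other fibroblasts. All 10 named genes stayed above 1 inside the main cluster, where Gpx3 had 3.15 and Ogn 3.07. The part of free RNA in these values was not tested.

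Ctla2a, the tenth and furthest gene, encodes a small protease inhibitor. It had 5.43 CPM in CON, 335 CPM in UV and 368 CPM in Rux members. In UV, 12 cells carried it and 1 of them held 50% of its UMIs, and inside the main cluster the UV over CON ratio was 1.56 in place of 5.85. The lower end for UV over CON was taken by Hist1h2ae, Cenpf, Hist1h2ap, Mki67, Birc5, Top2a and Hist1h1b, genes of replication and mitosis, and by Tex14, Ccnb1ip1 and Rpgrip1. Tex14, known from germ cell bridges, stood at 354 CPM in CON and at 64.7 CPM in UV members, with a log2 ratio of −2.45 there and −1.57 in other fibroblasts. Of these 10 genes, 8 were lower by more than 1 in other fibroblasts too.

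Some matrix and growth factor genes were higher in UV than in CON members. Of 29 matrix glycoproteins 10 were higher and 2 lower, of 14 collagens 3 were higher and 0 lower, and of 18 basement membrane genes 0 were higher and 1 lower. Of the activated fibroblast list, 7 of 15 were higher and 1 (Spp1) lower (median log2 0.93, against 0.33 in other fibroblasts). Postn, which encodes the matricellular protein periostin, had 585 CPM in CON, 1748 in UV and 2561 in Rux, with 1.58 (1.46 to 1.70) for UV over CON and 0.55 (0.49 to 0.62) for Rux over UV. Of matrix proteases and inhibitors, 9 of 22 were higher and 2 lower, and Mmp2, a gelatinase, had 105, 301 and 603 CPM. Of the TGF-beta list, 8 of 23 were higher and 0 lower (median 0.69, against −0.17). Ccn2, a connective tissue growth factor, had 73.7, 284 and 441 CPM in members and 188, 91.9 and 176 CPM in other fibroblasts, so that its ratio for UV over CON was 1.94 (1.62 to 2.28) in members and −1.03 in the others. Fbn2 was lower, with −1.04 (−1.24 to −0.84) for UV over CON and −0.96 (−1.19 to −0.74) for Rux over UV, and Acan, given above, also stood lowest in Rux and highest in CON. For Rux over UV no gene of the TGF-beta list passed in either direction.

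Many of the cytokine and secretory genes were higher in UV than in CON members. For UV over CON, 11 of 19 were higher and 0 lower (median log2 1.64, against 0.29 in other fibroblasts, and 1.19 inside the main cluster). Il6, whose values are set aside below, is among the 11. Cxcl12, a homing chemokine of stromal cells, had 55.8, 247 and 610 CPM in members, with 2.14 (1.78 to 2.53) for UV over CON and 1.30 (1.14 to 1.47) for Rux over UV. Csf1, the macrophage growth factor, had 34.9, 180 and 220 CPM. In keratinocytes (at least 2 UMIs of Epcam, or 1% of UMIs from Krt14 and Krt5, and none of Ptprc or Cdh5) Cxcl12 had 20.2, 28.3 and 58.6 CPM and Csf1 16.0, 39.3 and 55.8 CPM, in the same order of libraries. Il6 UMIs were found in 36.0%, 31.1% and 25.8% of members and in 23.8%, 35.8% and 23.6% of keratinocytes, at median depths of 16812, 12721.5 and 13982 UMIs in members and 20904.5, 23887 and 23901.5 UMIs in keratinocytes. Its level in immune cells (177, 231 and 121 CPM) was above that in members, and its values in members are not read as expression or as a difference between libraries. The part of free RNA in the counts of this list was not tested. For Rux over UV, 5 of 21 were higher and 1 lower, Igfbp3. Saa3, an acute-phase gene and the furthest above, had 0.776, 1.32 and 165 CPM, but 1 Rux cell held 86.8% of its UMIs. Inside the main cluster it had 11.3 CPM in Rux. Spp1, which came second, likewise had 89.2% of its Rux UMIs in 1 cell and a ratio of 0.19 inside the main cluster against 3.13 over all members.

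The JAK-STAT list bears on the target of ruxolitinib. For Rux over UV, 5 of 28 genes were lower and 0 higher (median log2 −0.19 in members and −0.17 in other fibroblasts, beside −0.03 over all genes). The lower ones were Stat2, Stat5a, Socs1, Socs3 and Cish, 3 of which encode feedback inhibitors of the pathway. Socs3 had 378 CPM in CON, 337 in UV and 153 in Rux members, with −1.14 (−1.33 to −0.95) for Rux over UV and −1.17 inside the main cluster. In other fibroblasts it had 950, 462 and 133 CPM. Socs1 had 35.7, 22.4 and 9.84 CPM, with −1.19 (−1.97 to −0.43), and Stat2 48.9, 33.7 and 11.9 CPM, with −1.49 (−2.17 to −0.84). For UV over CON, 4 of 28 genes were higher (Cish, Il6ra, Osmr and Myc). Hmox1, which encodes the haem-degrading oxygenase, had 32.6, 168 and 66.7 CPM in members, with 2.35 (1.89 to 2.88) for UV over CON and −1.33 (−1.61 to −1.06) for Rux over UV. It showed the same order in other fibroblasts, with 55.2, 427 and 112 CPM.

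**Figure D5:**
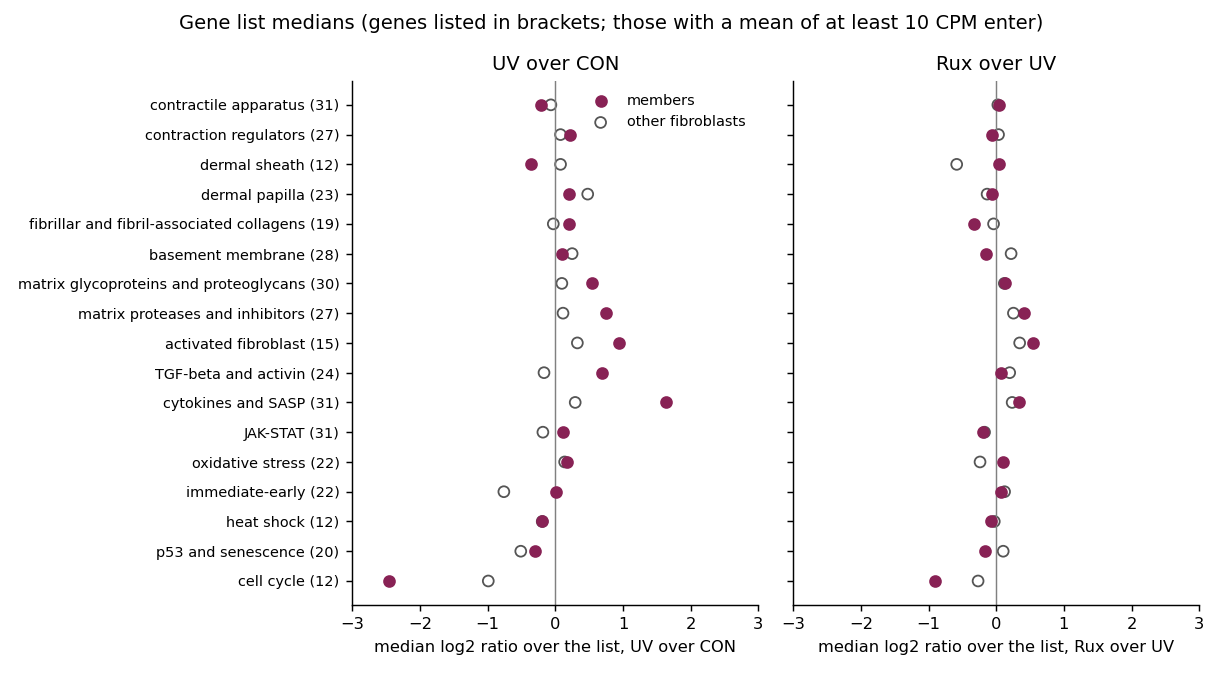
Median log2 ratio of the measured genes of 17 lists (horizontal axis) for UV over CON and Rux over UV, filled circles for members and open circles for other fibroblasts of the same libraries. For UV over CON the cell cycle list stands at −2.45 in members and the cytokine list at 1.64, and for Rux over UV the cell cycle list at −0.91.

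Further genes stood lower in Rux than in UV members, among them Has1, a hyaluronan synthase, with 277 CPM in UV and 96.2 CPM in Rux, or −1.52 (−1.75 to −1.30), and −2.08 inside the main cluster. The transcription factor gene Id2 had −1.51 (−1.89 to −1.14), and the death receptor gene Fas −1.40 (−1.75 to −1.05). Of the 10 named, 8 were lower by more than 1 in other fibroblasts too. On the higher side, Mmp11, a stromelysin, had 29.5 CPM in CON, 46.2 in UV and 194 in Rux, with 2.06 (1.71 to 2.45) in members and 1.90 in other fibroblasts. Mgp, an inhibitor of calcification, had 143 CPM in UV and 530 CPM in Rux, or 1.89 (1.69 to 2.11), against 0.63 in other fibroblasts. Prdm1, a transcription factor of the papilla list, had 94.6, 67.3 and 21.8 CPM in CON, UV and Rux members, with −1.62 (−2.11 to −1.16) for Rux over UV and 0.04 in other fibroblasts. Corin had 0.75 (0.40 to 1.13) for Rux over UV.

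Rux over CON shares a library with each of the other contrasts. Of the activated fibroblast list 11 of 15 genes were higher (median log2 1.53, against 0.39 in other fibroblasts and 1.02 inside the main cluster), of the cytokine list 16 of 21 were higher and 1 lower, and of the cell cycle list 10 of 11 were lower. The 16 include Il6, whose values in members are not read as a difference between libraries. Mmp3, another stromelysin, was at 4.65 CPM in CON and 179 CPM in Rux members, or 5.15 (4.13 to 6.72), against 1.17 in other fibroblasts. Clec3b, which encodes tetranectin, had 4.18 (3.64 to 4.84) in members and −0.25 in the others. Of the 10 genes named as higher, 9 stood above members in other fibroblasts of both libraries, and of the 10 named as lower none did.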

How the data were processed

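For each library the authors deposited raw UMI counts per gene and cell, with 32285 genes and made with Cell Ranger against mm10. The labels give version 6.1.2 and the file header 7.0.0. The libraries held 165337289 (CON), 133972374 (UV) and 131570327 (Rux) UMIs. Counts were summed over cells of a class and scaled to the sum's total, and 2 sums were compared by the log2 ratio of CPM with 0.5 UMI added. Shares have Clopper-Pearson, CPM Poisson and ratios exact conditional intervals at 95%, which cover counting error only. The functions were tested on simulated data.

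Members and gene lists were chosen with earlier results of these data known. Named genes were the markers, genes of 35 lists where a passage needed them, the 20 highest and 10 lowest against other fibroblasts, and the 10 highest and 10 lowest per contrast (mean of at least 50 CPM and 100 UMIs) or by difference between members and other fibroblasts. Clusters used scanpy 1.11.5 with 2000 variable genes, 30 components and resolution 1, without batch correction. The cells with the highest Scrublet scores (0.8% for every 1000 kept cells) were kept, and left out in an alternative. Coordinates came from GENCODE M21 (GRCm38), where 32158 genes matched. Python 3.11.15, numpy 2.4.6, scipy 1.17.1, pandas 2.3.3 and matplotlib 3.10.9 were used. Alternatives changed the number of rule genes, the cell filters, the scaling, the weight of cells, the CPM minimum, the clustering and depth. Some single-gene results are not reported here.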

Additional observations from a re-analysis of the deposited data

Results flagged for a closer look

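Of the 10 genes whose UV over CON ratio differed most between members and other fibroblasts, 4 turned in sign: their log2 ratio of UV over CON was above 0 in members and below 0 in other fibroblasts of the same libraries; the difference was not tested, since each condition had 1 library. They were Ctla2a with 5.85 in members and −1.10 in the others, Ccn2 with 1.94 and −1.03, Cilp with 2.20 and −0.64, and Igf1 with 2.51 and −0.22. Inside the cluster that held most members the ratios were 1.56, 1.97, 2.18 and 1.73 in the same order.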

How the results depend on the processing

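No paired analysis was possible because each condition had 1 library. The share of fibroblasts moved past its interval in CON, UV and Rux with 2 of 5 genes (3.38%, 3.8% and 7.0%), and in UV and Rux with 4 of 5 genes (1.26% and 2.03%), after thinning to 3000 UMIs (1.64% and 2.28%), and with Adamts18 (1.51% and 2.52%), Lrrc15 (1.28% and 2.08%) or Col11a1 (1.36% and 2.39%) dropped from the rule, where CON had 2.19%, 1.83% and 1.89% and the Rux interval overlapped that of CON. The cluster that held most members, an alternative chosen after seeing the data, took 2.60% in UV. Counts of genes past the fold moved by over 1.5 times with the minimum: at 10 UMIs they were 984 higher and 1036 lower (UV over CON), 478 and 666 (Rux over UV) and 1258 and 1500 (Rux over CON), and at 50 CPM 181 and 105, 33 and 21, and 287 and 211. Median-of-ratios scaling gave 353 genes higher in members than in other fibroblasts, and 4 of 5 genes gave 245 lower in Rux over UV. With 15 components 91.4% of members fell in 1 cluster. Spp1 in Rux over UV changed sign with 4 of 5 genes, to −0.67. Of the other values recomputed for single genes and list medians, 868 moved by less than 0.5 on the log2 scale and 111 by more; for Rux against CON in members, Tagln went from −0.49 to 0.10 with 4 of 5 genes, and some ratios near 0 also crossed 0. CON had the fewest member cells (75) and the fewest member UMIs in all (1289402), which limits the precision of its summed values.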

Other observations

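Neuronal and guidance genes were among those higher in members. Of 24 measured genes of that list, 10 were higher than in other fibroblasts in all 3 libraries and 2 lower (median log2 1.35, beside 0.28 over all genes). Slit2, a guidance ligand, had 583, 629 and 725 CPM in CON, UV and Rux members against 207, 153 and 209 CPM, and its receptor gene Robo1 126, 237 and 327 CPM against 58.7, 40.9 and 60.1 CPM. Sema3a, a repulsive guidance ligand, had 52.7, 164 and 299 CPM in members and 39.6, 26.0 and 36.2 CPM in other fibroblasts. Its ratio for UV over CON was 1.63 (1.25 to 2.05) in members and −0.61 in the others.

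Levels of 3 hair follicle genes, chosen after their values were seen, are given for the libraries as a whole. Over all kept cells Krt71, a keratin of the inner root sheath, had 48.7 CPM in CON, 266 in UV and 288 in Rux, and Krt25, another keratin of that layer, 120, 455 and 395 CPM. Lgr5, a gene of follicle stem cells, had 67.1, 32.2 and 30.1 CPM. Their part in the values of members was not tested.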
